A study of Mus musculus with 9 samples.

Results

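The collagen genes were taken as all protein-coding genes whose symbol has the form Col, a type number, the letter a and a chain number, with symbols looked up from the Ensembl identifiers of the count tables. This gave 44 of the 49671 genes, and all 44 were abundant enough to be tested. They were sorted by the kind of collagen they encode into 11 fibrillar genes, 6 type IV genes, 4 genes of other basement membrane collagens (types VII, XV, XVII and XVIII), 6 type VI genes, 9 genes of fibril-associated collagens with interrupted triple helices (FACIT) and 8 others. Gene expression was measured by RNA-seq in cells sorted from the body skin of female C57BL/6 mice as carrying KIT, a receptor of the melanocyte lineage and of mast cells, and lacking CD45, a marker of immune cells. Libraries came from melanoblasts, which give rise to melanocytes, of pups at postnatal day 0.5 (n = 3), from quiescent melanocyte stem cells (McSC) of adult mice aged 8 to 10 weeks (n = 4), and from quiescent McSC of aged mice at 24 months (n = 2). Adult and aged skin was in telogen, when hair follicles rest, and no group carried a transgene or received a treatment according to the labels. Newborn and adult mice were C57BL/6J bred in house, whereas the aged mice were C57BL/6 that came from another colony at 21 months, so colony and age cannot be told apart. Each library was a pool of several animals, so a p-value here reflects how much pools differed.

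Collagens are trimers of chains wound into a triple helix. Types I, III and V assemble into the fibrils that fibroblasts lay down in the dermis, FACIT collagens sit on the surface of such fibrils, type VI forms beaded filaments, and type IV forms the sheet-like network of basement membranes under epithelium and around vessels, nerves and muscle. Type XVII is a transmembrane collagen of the hemidesmosomes that tie basal keratinocytes to the basement membrane, and hair follicle stem cells, the neighbours of McSC in the follicle bulge, also make it. In a sorted bulk sample, fewer cells of a type and less RNA per cell cannot be told apart, and RNA of cells other than melanocytes is measured along with theirs.

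Promoter sequence is shown for 3 genes: Col1a2 and Col3a1, chains of the fibrillar types I and III whose levels were among those that fell with age, and Col17a1, the collagen gene with the largest fitted difference between melanoblasts and adult McSC. The sequences are from the RefSeq promoter table of build GRCm38.p6, which matched 35 of the 44 genes. Each is the longest run of the window that no GENCODE exon covers. The Col1a2 stretch lies on the plus strand at chr6:4505370-4505492 and ends 126 bases before the RefSeq start. The 2 annotations differ here: RefSeq starts Col1a2 at 4505618 and GENCODE at 4504814, so this stretch lies inside the GENCODE gene. The Col3a1 stretch is chr1:45311288-45311537 on the plus strand, directly before the start. The Col17a1 stretch is chr19:47692095-47692292 on the minus strand and ends 53 bases before the RefSeq start. Capitals mark GGGCGG, the core of a GC box, TATAAA, a core promoter motif, and CCAAT, each searched on both strands.
Col1a2: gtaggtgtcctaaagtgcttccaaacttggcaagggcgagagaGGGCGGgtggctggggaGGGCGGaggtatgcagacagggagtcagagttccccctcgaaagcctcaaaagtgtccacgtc
Col3a1: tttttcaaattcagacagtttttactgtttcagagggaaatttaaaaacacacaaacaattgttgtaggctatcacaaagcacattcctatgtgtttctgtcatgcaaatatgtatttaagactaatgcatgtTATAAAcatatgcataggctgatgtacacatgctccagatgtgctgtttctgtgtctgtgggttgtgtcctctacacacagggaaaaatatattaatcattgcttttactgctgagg
Col17a1: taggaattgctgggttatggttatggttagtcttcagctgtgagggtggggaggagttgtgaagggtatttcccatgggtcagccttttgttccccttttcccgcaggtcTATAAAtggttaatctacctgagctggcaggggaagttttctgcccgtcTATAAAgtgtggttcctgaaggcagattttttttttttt

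In the 250 bases before the start, TATAAA was found for Col3a1 (1 match) and Col17a1 (2 matches), and for 5 of the 35 matched collagen genes (14.3%), against 13% of 27025 genes. GGGCGG was found for 21 of 35 collagen genes (60%), against 32.9% of all genes, with 2 matches before Col1a2 and none before Col3a1 or Col17a1. CCAAT was found for 12 of 35 (34.3%), against 34.5%, with 1 match each for Col1a2 and Col17a1, outside the printed stretches, and none for Col3a1. The collagen windows were those of the RefSeq start nearest the GENCODE start. For the 27025 genes, which were not limited by gene type, the first listed start was used, so the shares are not strictly alike. Different motifs of these 3 can share at most 2 letters, and a match describes the letters only. Col4a1 (ENSMUSG00000031502, chr8:11198423-11312826, minus strand) and Col4a2 (ENSMUSG00000031503, chr8:11312805-11449287, plus strand), which encode the most widespread type IV chains, are transcribed away from each other from starts that overlap by 22 bases (chr8:11312805-11312826).

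Libraries held 23688288 to 33710117 counts in melanoblasts, 19956424 to 21572026 in adult McSC and 12594770 to 16362560 in aged McSC. Levels are given as CPM, counts scaled to one common library total with TMM factors. The factors of melanoblast replicates 1 to 3 were 0.560, 0.569 and 0.842. They were 1.09 to 1.21 in adult and 1.38 to 1.52 in aged McSC. The factors thus differed by group, and differences between groups depend on them. A gene with a count of 0 could be at up to 3 counts, or 0.117 to 0.187 CPM depending on the library, for counting error only. The 9 melanocyte lineage markers summed to 13959 to 25595 CPM in melanoblasts, 4174 to 10441 CPM in adult and 7234 to 8465 CPM in aged McSC, none of them at 0 in any library, and 8 of the 9 fell from melanoblasts to adult McSC. Ptprc, the gene of CD45, was at 0.678 to 3.17 CPM in melanoblasts, 4.15 to 7.44 CPM in adult and 6.31 to 7.47 CPM in aged McSC. Olfactory and vomeronasal receptor genes, which skin is not known to use, took 175 to 392 ppm of the counts in melanoblasts, 792 to 1520 ppm in adult and 1640 to 1750 ppm in aged libraries. This background differed between the groups, and its part in the levels of weakly detected collagens was not tested. Per kilobase of exon, 8 collagen genes in melanoblasts, 13 in adult and 11 in aged McSC averaged at or below the 95th percentile of the receptor genes.

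Fibrillar collagens dominated the collagen transcripts of melanoblasts, and FACIT collagens those of McSC. To compare genes with each other, CPM were divided by exon length, and all 44 genes were summed. The sum was 263 ± 110.1 CPM per kb (SD, n = 3) in melanoblasts, 352 ± 27.9 (SD, n = 4) in adult and 193 ± 14.9 (SD, n = 2) in aged McSC. Fibrillar genes made 56.8% ± 8.62 of it in melanoblasts, 21.5% ± 7.05 in adult and 11.9% ± 2.29 in aged McSC. FACIT genes made 23.2% ± 6.05, 49.4% ± 7.74 and 58.4% ± 4.98, and the other basement membrane collagens 3.46% ± 1.26, 16.9% ± 5.23 and 15.5% ± 2.07. The fibrillar share was above 47% in every melanoblast library and at most 31.2% in every McSC library. Type IV genes made 6.09% ± 0.431, 6.05% ± 2.02 and 4.36% ± 0.167, with both aged libraries below all melanoblast libraries, and type VI genes made 7.74% ± 0.658, 3.07% ± 0.200 and 4.46% ± 0.413.

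**Figure D1:**
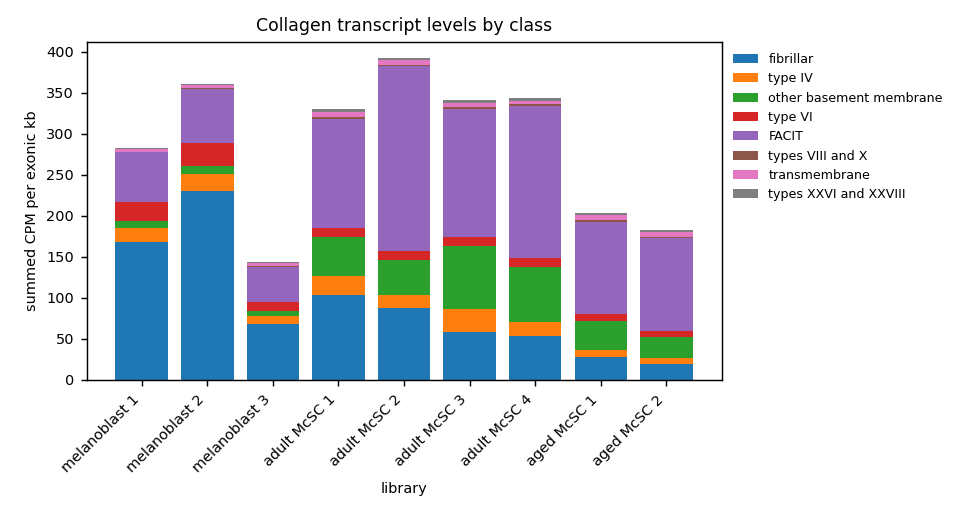
Summed TMM-scaled CPM per exonic kb of the 44 collagen genes (y axis) in each of the 9 libraries (x axis), stacked by class. Fibrillar genes are the largest block in the 3 melanoblast libraries and FACIT genes in the 6 McSC libraries.

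The order of genes per kilobase changed with it. In melanoblasts the highest levels were those of Col3a1 at 60.1 CPM per kb, Col1a1 at 57.1, Col12a1 at 42.7 and Col1a2 at 23.6. The SD of Col3a1 (38.4) and of Col1a1 (27.5) exceeded the gap between them and Col12a1. In adult McSC Col12a1 led at 159 ± 40.9 CPM per kb, followed by Col17a1 at 49.3 ± 15.6, Col1a1 at 27.8 ± 11.7, Col3a1 at 17.3 ± 6.11 and Col1a2 at 14.7 ± 5.30. The gap between Col12a1 and Col17a1 was larger than their spread, while Col3a1 and Col1a2 were not separated beyond it. In aged McSC Col12a1 stood at 99.3 CPM per kb and Col17a1 at 22.1, followed by Col16a1 at 6.4 and Col1a1 at 6.04. Col12a1 alone made 17.2% of the collagen sum in melanoblasts (14.4% to 21.1%), 44.9% in adult (34.9% to 53.6%) and 51.7% in aged McSC (47.9% to 55.5%).

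**Figure D2:**
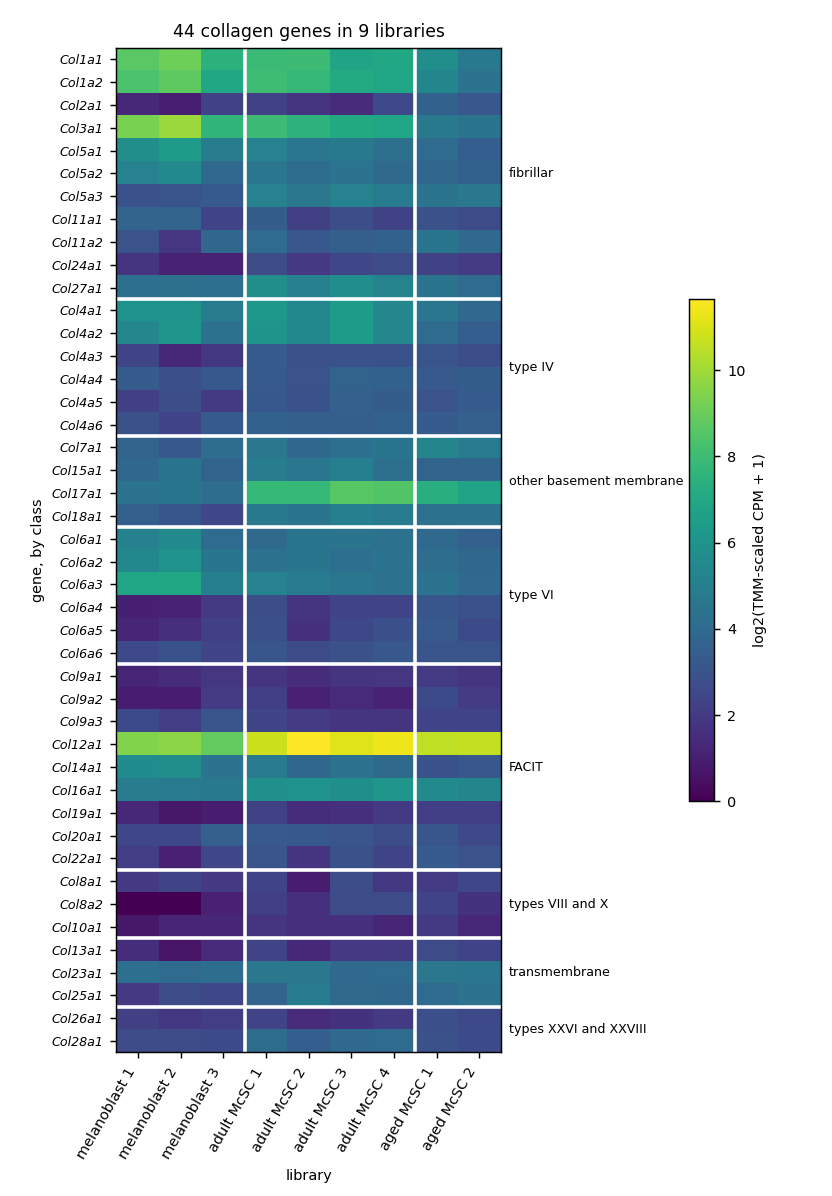
Level of each of the 44 collagen genes (rows, by class) in each library (columns) as log2(TMM-scaled CPM + 1). Col12a1 is the brightest row in all 6 McSC libraries, and Col1a1, Col1a2 and Col3a1 are bright in melanoblasts and dim in the 2 aged libraries.

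The comparison of adult McSC with melanoblasts sets a resting stem cell beside the dividing precursor of newborn skin. Of the 44 collagen genes, 16 rose and 7 fell by edgeR's quasi-likelihood test with Benjamini-Hochberg adjustment over 31961 genes at 0.05. Among all genes tested, 33.4% were called, 15.1% as higher and 18.3% as lower, so the collagen genes had a larger share of rises (36.4%) and a similar share of falls (15.9%). Their median log2 fold change was 0.59, beside 0.39 over all genes tested. The falls were in fibrillar collagens, type VI and 1 FACIT gene, and none of the 10 basement membrane genes fell, while 6 of those 10 rose. The 17 alternative settings kept 11 of the 23 calls throughout, namely Col4a3, Col5a3, Col8a2, Col12a1, Col16a1, Col17a1, Col18a1, Col24a1, Col25a1, Col27a1 and Col28a1, all of them rises. Per kilobase, Col24a1 averaged at or below the 95th percentile of the receptor genes in both groups, and Col4a3 and Col8a2 did in melanoblasts. Of the other rises, Col6a4 and Col19a1 were at or below it in both groups. The receptor genes had a median of 0.094 CPM in melanoblasts and 0.32 CPM in adult McSC, and their part in these rises was not tested. With scaling factors from abundant genes the median of all genes moved from 0.39 to 1.15, and 26 collagen genes were higher and none was lower. Of all 31961 genes, 10416 were higher and 1985 lower in that fit. Relative to the median of all genes, the log2 fold changes of the collagen genes moved by at most 0.165, with 19 of them below it in place of 20.

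**Figure D3:**
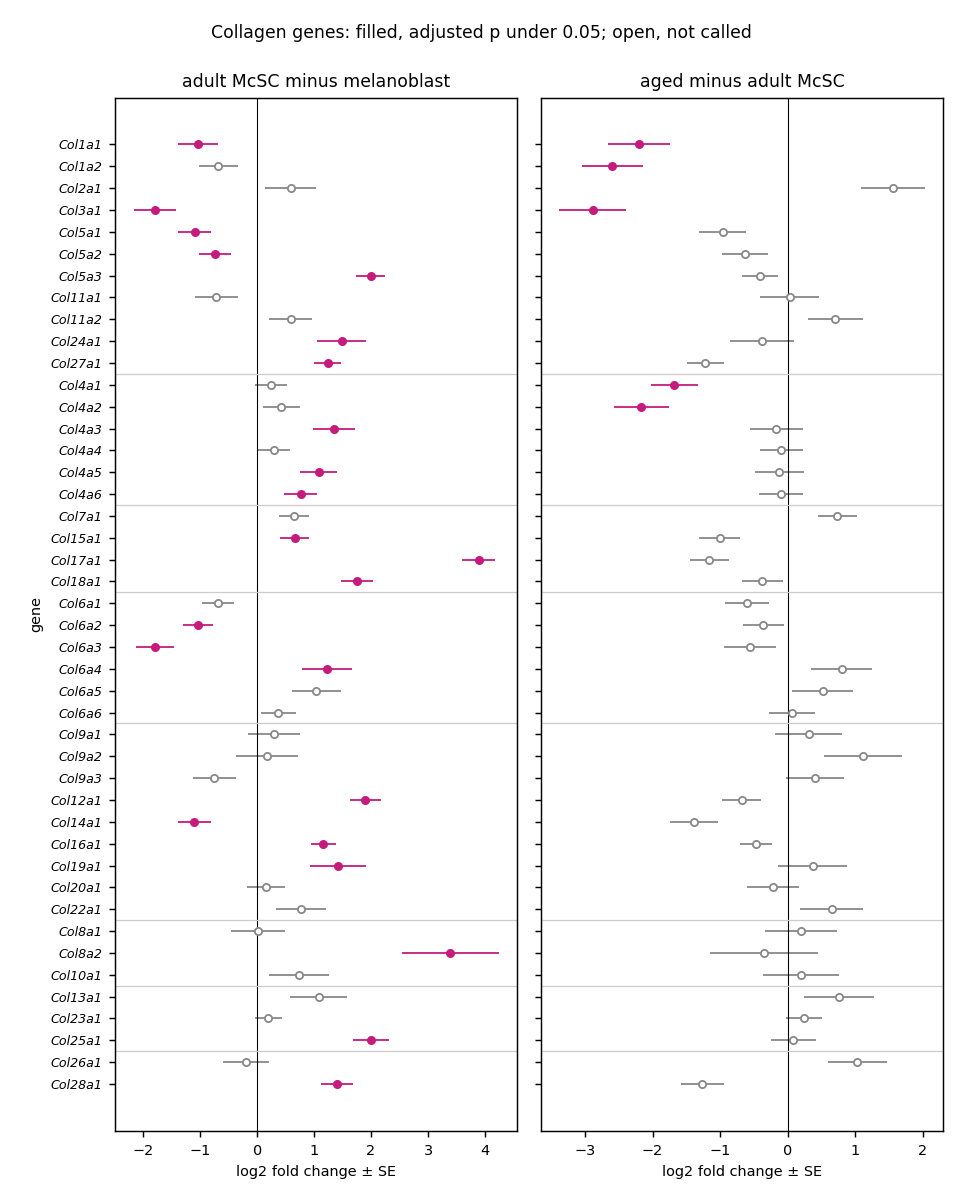
Log2 fold change ± SE of each collagen gene (rows, by class) in adult McSC minus melanoblasts (left) and aged minus adult McSC (right), with filled points for an adjusted p under 0.05. On the left 16 filled points lie above 0 and 7 below, and on the right the 5 filled points all lie below 0. With scaling factors from abundant genes the left counts become 26 and 0, where 10416 of all 31961 genes were higher and 1985 lower.

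The fibrillar genes divided. Col1a1, Col3a1, Col5a1 and Col5a2 fell, Col5a3, Col24a1 and Col27a1 rose, and the other 4 of the 11 were not called. Col3a1 (ENSMUSG00000026043, chr1:45311538-45349706, plus strand), the single chain of type III collagen, was at 629, 946 and 196 CPM in melanoblasts and at 249, 183, 134 and 114 CPM in adult McSC. Its lowest melanoblast library, replicate 3, lay within the adult range, and the others lay far above it. It was 3.47-fold lower in adult McSC (log2 fold change -1.80, SE 0.372, adjusted p = 0.00114). Col1a1 (ENSMUSG00000001506, chr11:94936224-94953042, plus strand), the more abundant chain of type I collagen, was at 410.0, 535 and 179.8 CPM in melanoblasts and at 242, 255, 110.2 and 122 CPM in adult McSC. Again melanoblast replicate 3 was below the higher 2 adult libraries (log2 fold change -1.04, SE 0.358, adjusted p = 0.0324). Col1a2, the partner chain (ENSMUSG00000029661, chr6:4504814-4541544, plus strand), was at 327, 427 and 125 CPM in melanoblasts and at 259, 214, 137 and 119 CPM in adult McSC and was not called (log2 fold change -0.68, SE 0.346, adjusted p = 0.133), with a 95% interval of its log2 fold change from -1.41 to 0.04. Type I is built mainly of trimers with 2 Col1a1 chains and 1 Col1a2 chain, and per kilobase Col1a1 exceeded Col1a2 by 2.49 ± 0.207 times (SD, n = 3) in melanoblasts, 1.87 ± 0.308 times (SD, n = 4) in adult and 2.44 ± 0.198 times (SD, n = 2) in aged McSC.

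Type V collagen sits inside type I fibrils and limits their width, and its chains went in opposite directions. Col5a1 was at 52.6, 82.5 and 28.5 CPM in melanoblasts and at 35.1, 23.1, 24.8 and 18.9 CPM in adult McSC (log2 fold change -1.10, SE 0.288, adjusted p = 0.00502). Col5a2 was at 35.3, 44.8 and 14.6 CPM in melanoblasts and at 23.1, 16.3, 20.9 and 15.2 CPM in adult McSC (log2 fold change -0.74, SE 0.286, adjusted p = 0.0479), and its log2 fold change was 0.14 with scaling factors from abundant genes. In both, melanoblast replicate 3 overlapped the adult libraries. Col5a3, the third type V chain, was at 6.72, 7.19 and 8.73 CPM in melanoblasts and at 35.4, 23.7, 35.4 and 25.9 CPM in adult McSC, a 3.98-fold rise with no overlap (log2 fold change 1.99, SE 0.252, adjusted p = 1.52e-06). Col27a1, a fibrillar collagen best known from cartilage, was at 18.4, 18.5 and 18.3 CPM in melanoblasts and at 52.9, 32.5, 51.4 and 36.6 CPM in adult McSC, also without overlap (log2 fold change 1.24, SE 0.239, adjusted p = 2.92e-04). Col11a2 averaged 7.6 ± 5.44 CPM (SD, n = 3) in melanoblasts and 11.5 ± 3.36 CPM (SD, n = 4) in adult McSC and was not called (adjusted p = 0.229). The remaining fibrillar genes, Col2a1, Col11a1 and Col24a1, averaged under 10 CPM in every group, and of these Col24a1 rose.

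Several falls of fibrillar genes rested on single libraries. Leaving out melanoblast replicate 1 or 2, or adult replicate 1, 3 or 4, ended the call of Col1a1 (adjusted p = 0.0695, 0.168, 0.0542, 0.081 and 0.0828), and leaving out melanoblast replicate 2 ended that of Col5a1 (adjusted p = 0.091). Col5a2 lost its call without any single library other than melanoblast replicate 3 (adjusted p between 0.0706 and 0.339). The call of Col3a1 held without each library in turn and was lost with factors from abundant genes (adjusted p = 0.0793). The number of fibrillar genes called lower ran from 1 to 6 over the fits that left out a library.

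Fibroblast markers are given beside these genes because dermal fibroblasts are the main source of fibrillar collagen. Of 10 markers, 2 rose and 3 fell in adult McSC (1 fell without melanoblast replicate 2, 6 without melanoblast replicate 3, and 1 with factors from abundant genes). Their sum was 225, 281 and 115 CPM in melanoblasts, 223, 221, 134 and 150.4 CPM in adult and 146 and 80.3 CPM in aged McSC, and Clec3b was at 0 in melanoblast replicate 1. The same libraries that were high for this sum in each group, melanoblast replicates 1 and 2, adult replicates 1 and 2 and aged replicate 1, were also the higher ones for Col1a1 and Col1a2. Dcn, the most abundant marker, averaged 49.98 CPM in melanoblasts, 111 CPM in adult and 55.3 CPM in aged McSC. Their part in the levels of the fibrillar genes was not tested.

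**Figure D4:**
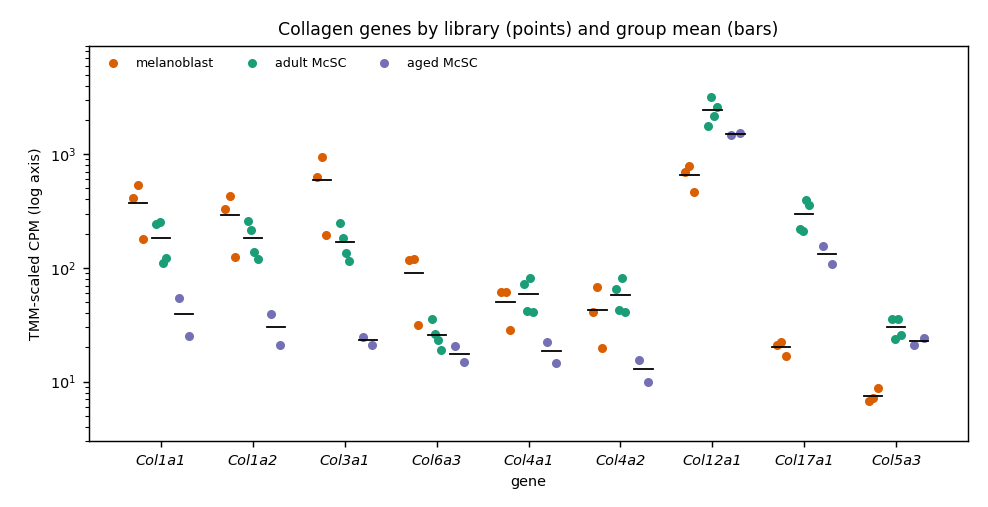
TMM-scaled CPM (log axis) of 9 collagen genes in each library (points) with the group mean (bars). Col1a1, Col1a2, Col3a1, Col4a1 and Col4a2 are lowest in the 2 aged libraries, whereas Col12a1, Col17a1 and Col5a3 are lowest in the 3 melanoblast libraries.

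Basement membrane collagens rose or were not called. Col17a1 (ENSMUSG00000025064, chr19:47646344-47692094, minus strand) was at 21, 22.2 and 16.8 CPM in melanoblasts and at 221, 212, 396 and 357 CPM in adult McSC. Every adult library was above every melanoblast library by a wide margin, and the adult level was 14.9-fold that of melanoblasts (log2 fold change 3.89, SE 0.29, adjusted p = 2.81e-10). Adult replicates 3 and 4 were the higher of their group for Col17a1 and also for the sum of 12 keratinocyte markers, which was 278, 208 and 88.5 CPM in melanoblasts, 1451, 1112, 2439 and 1936 CPM in adult and 1074 and 911 CPM in aged McSC. All 12 of these markers rose in adult McSC, none was at 0 in any library, and Krt5, the most abundant, averaged 37.5 CPM in melanoblasts and 388 CPM in adult McSC. The part of keratinocyte RNA in the level of Col17a1 was not tested.

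Col18a1, whose C-terminal fragment is endostatin, was at 11.1, 7.56 and 4.52 CPM in melanoblasts and at 25.5, 21.5, 31.4 and 25.8 CPM in adult McSC with no overlap, a 3.39-fold rise (log2 fold change 1.76, SE 0.28, adjusted p = 3.26e-05). Col15a1, its closest relative, was at 14.3, 21.7 and 12.3 CPM in melanoblasts and at 29.2, 22.9, 31.1 and 18.5 CPM in adult McSC (log2 fold change 0.66, SE 0.256, adjusted p = 0.0495). The groups of Col15a1 overlapped, and its call was lost without melanoblast replicate 1 or 3 or adult replicate 1, 2 or 3 (adjusted p from 0.0502 to 0.157) and with DESeq2 (adjusted p = 0.0732). Col7a1, the gene of the anchoring fibrils below the epidermis, averaged 12.4 ± 4.16 CPM (SD, n = 3) and 19.4 ± 4.06 CPM (SD, n = 4) and was not called (adjusted p = 0.0651).

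Of the 6 type IV genes, Col4a3, Col4a5 and Col4a6 rose and Col4a1, Col4a2 and Col4a4 were not called. Col4a1 was at 60.9, 61.1 and 28.5 CPM in melanoblasts and at 72.6, 41.8, 82.1 and 41.2 CPM in adult McSC (log2 fold change 0.24, SE 0.287, adjusted p = 0.522), with a 95% interval from -0.35 to 0.84 on the log2 scale, and Col4a2 was at 41, 67.7 and 19.8 CPM in melanoblasts and at 64.6, 42.6, 82 and 40.7 CPM in adult McSC (log2 fold change 0.42, SE 0.326, adjusted p = 0.321), with an interval from -0.25 to 1.10. These intervals leave room for differences in either direction. Both were called higher with factors from abundant genes (log2 fold changes 1.12 and 1.31, adjusted p = 0.0176 and 0.0163), and Col4a2 also without melanoblast replicate 2 (0.92, adjusted p = 0.0384) and with the stricter filter (0.97, adjusted p = 0.0388). Col4a6 was at 6.35, 4.01 and 8.88 CPM in melanoblasts and at 11.1, 10.4, 10.7 and 11.3 CPM in adult McSC (log2 fold change 0.76, SE 0.289, adjusted p = 0.0442), a call that was lost without melanoblast replicate 1 or 2 or adult replicate 2, 3 or 4 (adjusted p from 0.0563 to 0.214). Col4a3, Col4a4 and Col4a5 averaged between 2.86 and 7.99 CPM in melanoblasts and between 7.23 and 9.76 CPM in adult McSC. Col4a5 lost its call without melanoblast replicate 1 or adult replicate 3 (adjusted p = 0.0574 and 0.0514).

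Type VI filaments are built of one chain each of Col6a1, Col6a2 and a longer chain, usually Col6a3. Col6a3 was at 117, 120.3 and 31.6 CPM in melanoblasts and at 35.3, 26.2, 23 and 19.1 CPM in adult McSC. Melanoblast replicates 1 and 2 stood far above all adult libraries and replicate 3 lay among them, and the level was 3.46-fold lower in adult McSC (log2 fold change -1.79, SE 0.332, adjusted p = 3.07e-04), a call that held without each library in turn and was lost with factors from abundant genes (adjusted p = 0.0538). Col6a2 was at 42.6, 60 and 21.8 CPM in melanoblasts and at 19.1, 22.4, 18.1 and 20.9 CPM in adult McSC (log2 fold change -1.04, SE 0.263, adjusted p = 0.00349), and lost its call without melanoblast replicate 2 (adjusted p = 0.0683). Col6a1 averaged 31.6 ± 15.1 CPM (SD, n = 3) and 19.5 ± 3.12 CPM (SD, n = 4) and was not called (adjusted p = 0.0577). The alternative long chains Col6a4, Col6a5 and Col6a6 averaged under 10 CPM in every group. Col6a4 rose, a call lost without melanoblast replicate 1 or 2 or adult replicate 1, 3 or 4 (adjusted p from 0.0546 to 0.128).

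Among the FACIT genes, Col12a1, Col16a1 and Col19a1 rose, Col14a1 fell and 5 were not called. Col12a1 (ENSMUSG00000032332, chr9:79598991-79718831, minus strand), whose long product bridges type I fibrils to other matrix molecules, was at 701, 788 and 461 CPM in melanoblasts and at 1756, 3209, 2151 and 2591 CPM in adult McSC. Each adult library exceeded each melanoblast library, and the rise was 3.73-fold (log2 fold change 1.9, SE 0.266, adjusted p = 6.61e-06). The melanocyte marker sum in adult replicates 1 to 4 was 4174, 10441, 5539.7 and 7098 CPM, beside 13959 to 25595 CPM in melanoblasts, and the part of either cell type in the level of Col12a1 was not tested. Col16a1 was at 29.4, 25.7 and 25 CPM in melanoblasts and at 56.7, 62.3, 54.5 and 66 CPM in adult McSC and did not overlap either (log2 fold change 1.16, SE 0.213, adjusted p = 1.66e-04). Col14a1, another collagen of the fibril surface, was at 50.04, 53.5 and 20.4 CPM in melanoblasts and at 26.9, 14.5, 20.1 and 15.4 CPM in adult McSC, with melanoblast replicate 3 within the adult range (log2 fold change -1.10, SE 0.286, adjusted p = 0.00448). The 3 type IX genes, Col19a1, Col20a1 and Col22a1 averaged between 1.01 and 8.07 CPM over the groups, and Col19a1 lost its call without melanoblast replicate 2 or adult replicate 1 or 4 (adjusted p = 0.0902, 0.0757 and 0.0707).

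Among the remaining types, Col25a1 and Col28a1 rose. Col25a1, a transmembrane collagen named for its presence in amyloid plaques, was at 2.86, 5.26 and 4.72 CPM in melanoblasts and at 12.2, 28, 15.1 and 13.6 CPM in adult McSC, 4.01-fold higher with no overlap (log2 fold change 2.00, SE 0.319, adjusted p = 3.32e-05). Col28a1, which is known from the basement membrane around Schwann cells, was at 5.41, 5.47 and 5.12 CPM in melanoblasts and at 16.1, 10.1, 14.7 and 15.6 CPM in adult McSC (log2 fold change 1.40, SE 0.28, adjusted p = 4.18e-04). Schwann cell markers moved as well: 4 of 9 rose and 1 fell, and their sum was 223 to 331 CPM in melanoblasts and 551 to 801 CPM in adult McSC, with Sox2 at 0 in melanoblast replicate 3. Their part in the level of Col28a1 was not tested. Col23a1 averaged 17.2 ± 0.992 CPM (SD, n = 3) in melanoblasts and 19.6 ± 4.91 CPM (SD, n = 4) in adult McSC and was not called (adjusted p = 0.547). Of the short-chain collagens, Col8a2 rose from counts of 0 in 2 melanoblast libraries and 1.10 CPM in the third to 3.47, 1.97, 5.24 and 5.58 CPM, and Col8a1 was at 3.33 and 3.36 CPM on average. Col10a1, Col13a1 and Col26a1 averaged under 10 CPM in every group and were not called.

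The genes that make, fold and cross-link collagen fell more often than they rose. Of 30 such genes, 11 fell and 3 rose, with a median log2 fold change of -0.31, beside 0.39 over all genes. With factors from abundant genes 6 fell and 9 rose, where 1985 of all 31961 genes fell and 10416 rose. Plod2, a lysyl hydroxylase that sets the kind of cross-link, was at 141, 179.5 and 106 CPM in melanoblasts and at 27.3, 32, 27.4 and 24.5 CPM in adult McSC (log2 fold change -2.36, SE 0.222, adjusted p = 1.52e-08), and P3h1, a prolyl 3-hydroxylase, was at 29.4, 33 and 27 CPM in melanoblasts and at 10.1, 11.7, 8.79 and 9.32 CPM in adult McSC (log2 fold change -1.58, SE 0.228, adjusted p = 9.83e-06). Of the lysyl oxidases that start cross-linking, Lox was at 15.7, 24 and 8.73 CPM in melanoblasts and at 2.92, 3.12, 1.77 and 0.957 CPM in adult McSC (log2 fold change -2.88, SE 0.392, adjusted p = 4.69e-06) and Loxl3 at 62.1, 53.6 and 34.8 CPM in melanoblasts and at 8.88, 9.07, 8.79 and 7.33 CPM in adult McSC (log2 fold change -2.56, SE 0.242, adjusted p = 1.68e-08). The groups of these 4 genes, picked for the smallest p in these same libraries, did not overlap, which is description only. The other 7 that fell were P4hb, Plod1, Crtap, Ppib, Serpinh1, Mia3 and Loxl2, and the 3 that rose were P3h4, Tll1 and Pcolce2.

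**Figure D5:**
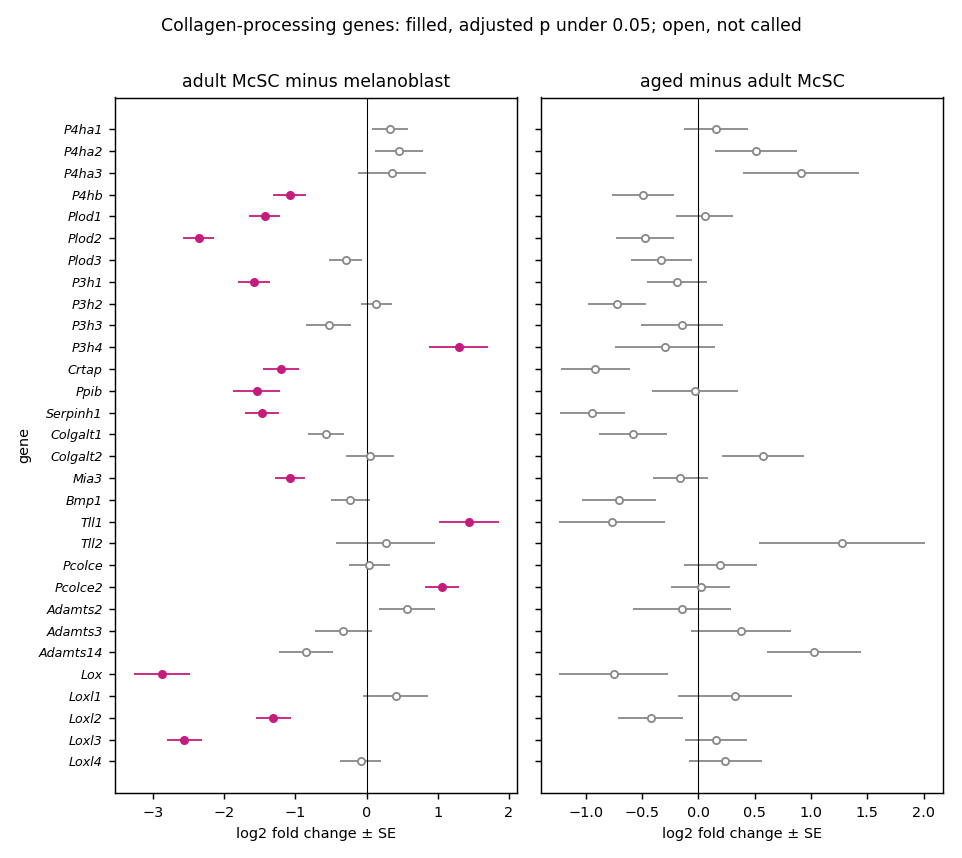
Log2 fold change ± SE of 30 genes of collagen hydroxylation, folding, secretion, cleavage and cross-linking (rows) in adult McSC minus melanoblasts (left) and aged minus adult McSC (right), with filled points for an adjusted p under 0.05. On the left 11 filled points lie below 0 and 3 above, and on the right no point is filled. With scaling factors from abundant genes the left counts become 6 and 9, where 1985 of all 31961 genes were lower and 10416 higher.

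Of 12 genes that degrade collagen or restrain its degradation, 2 rose and 4 fell, with a median of 0.39, where 15.1% of all genes rose and 18.3% fell. Under abundant-gene factors the balance turned to 4 rises and 1 fall (Mmp14). Calls among all 31961 genes leaned the same way there, 10416 higher against 1985 lower, so the turn was not limited to these 12. Leaving out single libraries gave 1 or 2 rises and 1 to 4 falls, with 1 fall without melanoblast replicate 2 or adult replicate 3. Mmp14, a membrane collagenase, fell (log2 fold change -1.28, SE 0.237, adjusted p = 1.85e-04), and Timp3, an inhibitor bound to the matrix, averaged 162 ± 18.8 CPM (SD, n = 3) in melanoblasts and rose to 326 ± 34.2 CPM (SD, n = 4) in adult McSC (adjusted p = 7.75e-04). Mmp2 and Mmp16 fell (log2 fold changes -0.79 and -0.75), but were at 0.026 and 0.023 with factors from abundant genes. Mmp2 was not called without melanoblast replicate 1 or 2 or adult replicate 3 or 4 (adjusted p from 0.0567 to 0.0944), nor Mmp16 without melanoblast replicate 2 or adult replicate 1 or 3 (adjusted p from 0.0659 to 0.0945). Timp2, the last of the 4, was not called without any single library other than melanoblast replicate 3 or adult replicate 2 (adjusted p from 0.0745 to 0.168). Of 10 collagen receptor genes, 4 rose and 1 fell, with a median of 0.78. Itgb1, the beta chain shared by the collagen-binding integrins, averaged 794 ± 195 CPM (SD, n = 3) in melanoblasts and fell to 227 ± 48.4 CPM (SD, n = 4) in adult McSC (log2 fold change -1.81, SE 0.236, adjusted p = 2.52e-06). Itga1, an alpha chain that prefers type IV collagen, rose (log2 fold change 1.46, SE 0.294, adjusted p = 4.57e-04), as did Ddr1, a receptor tyrosine kinase activated by collagen (log2 fold change 1.55, SE 0.245, adjusted p = 3.10e-05), and Adgrg1, an adhesion receptor with type III collagen as a ligand (log2 fold change 0.82, SE 0.283, adjusted p = 0.0278). Adgrg1 lost its call without melanoblast replicate 1 or 3 or adult replicate 2 or 4 (adjusted p from 0.0637 to 0.0993). Of 12 non-collagen partners in basement membranes, 8 fell and 2 rose, with a median of -0.83. Laminin chain genes Lamc1 (-2.13) and Lama1 (-1.50), the linker gene Nid1 (-2.06) and the proteoglycan gene Agrn (-1.17) had the smallest p among them (adjusted p = 2.11e-07, 8.61e-05, 3.29e-07 and 6.56e-04). With factors from abundant genes 3 partners fell.

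The comparison of aged with adult McSC sets resting stem cells late in life beside young ones. No collagen gene rose, 5 fell and 39 were not called, by edgeR's quasi-likelihood test with Benjamini-Hochberg adjustment over 31961 genes. Among all genes tested 0.303% were called, 0.0532% as higher and 0.25% as lower, so 5 of 44 (11.4%) is above the share of falls over all genes. Before adjustment, 15 collagen genes had a p under 0.05, 12 of them lower and 3 higher (Col2a1, Col7a1 and Col26a1), where 6.06% of all genes were lower and 4.18% higher at that p. DESeq2 called 0 collagen genes higher and 9 lower, beside 0.153% and 0.907% of all genes, and limma 1 higher and 10 lower, beside 2.66% and 2.1%. The median log2 fold change was -0.20, beside 0.08 over all genes. The adult libraries serve in both comparisons, so the values of the 2 comparisons are not independent. The 5 genes were the chains of types I and III and the common chains of type IV.

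Col3a1 was at 249, 183, 134 and 114 CPM in adult McSC and 24.9 and 21.2 CPM in aged McSC. Both aged libraries were below the lowest adult library, and the fitted aged level was 7.38-fold lower than the adult one (log2 fold change -2.88, SE 0.494, adjusted p = 0.0135). Col1a2 was at 259, 214, 137 and 119 CPM in adult McSC and 39.5 and 20.8 CPM in aged McSC, 6.04-fold lower (log2 fold change -2.59, SE 0.454, adjusted p = 0.0135). Col1a1 was at 242, 255, 110.2 and 122 CPM in adult McSC and 53.9 and 25.4 CPM in aged McSC, 4.6-fold lower (log2 fold change -2.20, SE 0.459, adjusted p = 0.0469). Col4a1 was at 72.6, 41.8, 82.1 and 41.2 CPM in adult McSC and 22.5 and 14.6 CPM in aged McSC, 3.2-fold lower (log2 fold change -1.68, SE 0.353, adjusted p = 0.0338). Col4a2 was at 64.6, 42.6, 82 and 40.7 CPM in adult McSC and 15.6 and 10.01 CPM in aged McSC, 4.48-fold lower (log2 fold change -2.16, SE 0.411, adjusted p = 0.0188). For all 5 genes every aged library was below every adult library. The 5 were called on these same libraries, and the share of all genes without overlap was not counted, so this is description only.

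These calls rest on few libraries. All 5 log2 fold changes stayed negative in the 17 alternatives, but none of the 5 was called without adult replicate 1 or without aged replicate 2, and none with factors from abundant genes. Without aged replicate 1 only Col1a2 was called, and without adult replicate 3 Col4a1 and Col4a2 were lost (adjusted p = 0.136 and 0.051). Without adult replicate 1 the log2 fold changes were -2.61 for Col3a1, -2.34 for Col1a2, -1.99 for Col1a1, -1.54 for Col4a1 and -2.08 for Col4a2 (adjusted p = 0.0609, 0.0558, 0.133, 0.103 and 0.103). Without aged replicate 2 they were -2.74, -2.17, -1.72, -1.37 and -1.85, and with 1 aged library, assumed to vary like the other groups, the adjusted p was 0.956, 0.887, 0.956, 0.956 and 0.956. Col1a1 was also not called without adult replicate 2 (adjusted p = 0.0884) or with limma (adjusted p = 0.0606), the stricter filter ended the calls of Col1a1, Col4a1 and Col4a2 (adjusted p = 0.0976, 0.138 and 0.0907), and Col4a1 not without melanoblast replicate 1 (adjusted p = 0.0508). With factors from abundant genes, which moved the median of all genes from 0.08 to 0.42, Col3a1 was at -2.56, and relative to the median of all genes it was at -2.98 with those factors and at -2.96 with the factors used here.

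Other collagens with an unadjusted p under 0.05 did not pass adjustment. Col27a1 was at 52.9, 32.5, 51.4 and 36.6 CPM in adult McSC and 21.1 and 16 CPM in aged McSC (log2 fold change -1.22, SE 0.276, adjusted p = 0.055), and Col28a1 at 16.1, 10.1, 14.7 and 15.6 CPM in adult McSC and 6.51 and 5.21 CPM in aged McSC (log2 fold change -1.26, SE 0.322, adjusted p = 0.117). Col17a1 was at 221, 212, 396 and 357 CPM in adult McSC and 156 and 109 CPM in aged McSC (log2 fold change -1.16, SE 0.294, adjusted p = 0.116), and Col14a1 at 26.9, 14.5, 20.1 and 15.4 CPM in adult McSC and 6.75 and 7.99 CPM in aged McSC (log2 fold change -1.39, SE 0.354, adjusted p = 0.117). Aged and adult libraries of these 4 genes did not overlap, which is description only, because the genes were picked by their p in these same libraries. Each of the 4 was called in at least 1 alternative. Without melanoblast replicate 3, which enters the estimate of spread, 9 collagen genes were called lower, with adjusted p = 0.0154, 0.0343, 0.0315 and 0.00934 for these 4. Among all genes, 224 of 31799 were called lower in that fit. Col12a1 was at 1756, 3209, 2151 and 2591 CPM in adult McSC and 1484 and 1539.8 CPM in aged McSC (log2 fold change -0.68, SE 0.293, adjusted p = 0.445), with a 95% interval from -1.29 to -0.08. Col2a1, the cartilage collagen, was at 3.78, 2.48, 1.82 and 4.91 CPM in adult McSC and 11.2 and 7.87 CPM in aged McSC, the highest log2 fold change of the collagen genes (log2 fold change 1.55, SE 0.472, adjusted p = 0.25), and was called higher without melanoblast replicate 3 (adjusted p = 0.0476).

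Of the 16 collagen genes that rose from newborn to adult, 13 had both aged libraries above the highest melanoblast library, and Col15a1, Col27a1 and Col28a1 did not. The 16 were called against these same melanoblast libraries, and the share among all genes that rose was not counted. The 13 of 16 is therefore description only. Col4a3, Col8a2, Col19a1 and Col24a1, which are among the 13, averaged at or below the 95th percentile of the receptor genes per kilobase in aged McSC. Among the genes that rose and averaged at least 10 CPM, Col5a3 was at 21.2 and 24 CPM, Col18a1 at 19.8 and 20.3, Col16a1 at 46.7 and 39.6 and Col25a1 at 15.8 and 20.8 CPM. Their log2 fold changes from adult were -0.41, -0.38, -0.47 and 0.08 (adjusted p = 0.596, 0.676, 0.504 and 0.953). Among the genes that fell from newborn to adult, Col5a1 was at 15.9 and 10.2 CPM, Col5a2 at 13.3 and 11.1, Col6a2 at 16.8 and 14.5 and Col6a3 at 20.4 and 14.8 CPM, and none of the 4 was called with age (adjusted p = 0.354, 0.529, 0.701 and 0.631). Col15a1 was at 12.3 and 13 CPM (log2 fold change -1.01, adjusted p = 0.242) and Col4a6 at 9.46 and 10.9 CPM (-0.10, adjusted p = 0.941). Col7a1, Col11a2, Col23a1 and Col6a1 averaged 32.2, 18.6, 23.2 and 12.8 CPM in aged McSC and were not called.

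Of the 30 genes of collagen processing none was called with age, while 5 had an unadjusted p under 0.05, and DESeq2 called 0 and limma 3. The median was -0.15. P4hb, a subunit of prolyl 4-hydroxylase, was at 105, 181, 115 and 118 CPM in adult McSC and 98.9 and 85.5 CPM in aged McSC (adjusted p = 0.545), and Plod2 at 27.3, 32, 27.4 and 24.5 CPM in adult McSC and 19.4 and 20.5 CPM in aged McSC (adjusted p = 0.53). None of the 12 degradation genes was called (median -0.21, 2 with an unadjusted p under 0.05, 0 called by DESeq2 and 1 by limma), and the abundant inhibitors Timp2 and Timp3 averaged 400.1 and 326 CPM in adult and 257 and 264 CPM in aged McSC. One of the 10 receptors fell: Itga1 was at 25.1, 17.1, 26.9 and 13.2 CPM in adult McSC and 7.12 and 4.92 CPM in aged McSC, without overlap (log2 fold change -1.77, SE 0.349, adjusted p = 0.0188). It was not called without adult replicate 1 or 3 or aged replicate 2 (adjusted p = 0.0749, 0.0998 and 0.956), nor with factors from abundant genes (adjusted p = 0.2). Of the 12 basement membrane partners 2 fell (16.7%, beside 0.25% of all genes tested), with a median of -0.80. Their log2 fold change was negative for 11 of the 12, and 9 had an unadjusted p under 0.05. DESeq2 called 5 of them lower and limma 8, and neither called any higher. Nid2, which links laminin to type IV collagen, was at 64.5, 34.1, 56.4 and 34.4 CPM in adult McSC and 7.28 and 6.42 CPM in aged McSC (log2 fold change -2.79, SE 0.333, adjusted p = 6.20e-05). Hspg2, the gene of perlecan, was at 149.8, 168, 185 and 139 CPM in adult McSC and 51.9 and 38.5 CPM in aged McSC (log2 fold change -1.83, SE 0.287, adjusted p = 0.0016). The aged libraries of both genes lay far below all adult libraries, and without aged replicate 2 Hspg2 was not called (log2 fold change -1.59, adjusted p = 0.232) while Nid2 was.

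Of the marker lists of other cells, 5 of 9 Schwann cell markers fell with age, and no endothelium, fibroblast or keratinocyte marker was called by edgeR. Of 10 endothelium markers, none was called by edgeR, 1 by DESeq2 and 0 by limma, and 5 had an unadjusted p under 0.05, with a median log2 fold change of -1.13. Their sum was 56.9, 85.3 and 49.2 CPM in melanoblasts, 106, 72.8, 236 and 66.1 CPM in adult and 56.1 and 46.4 CPM in aged McSC, and none was at 0 in any library. Pecam1, the most abundant, averaged 41 CPM in adult and 17 CPM in aged McSC. Adult replicate 3 was highest for these markers and for Col4a1 and Col4a2. From melanoblasts to adult McSC 4 of the 10 rose, but 0 did without adult replicate 3, 1 without melanoblast replicate 1, and 7 with factors from abundant genes. The last fit called 10416 of all 31961 genes higher. The Schwann cell markers had a median of -1.36, and their sum was 141 and 212 CPM in aged McSC. The count of falls was 3 without adult replicate 3 or aged replicate 1, 1 without aged replicate 2, and 3 with factors from abundant genes. Of the fibroblast markers none was called (median -0.14, 1 with an unadjusted p under 0.05, and 0 by DESeq2 or limma), and of the 12 keratinocyte markers none (median -0.48, 4 with an unadjusted p under 0.05, 3 called by DESeq2 and 4 by limma). The part of these cells in the falls of Col1a1, Col1a2, Col3a1, Col4a1 and Col4a2 was not tested.

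Further marker lists were measured beside the collagens. Pericyte and smooth muscle markers summed to 43.9 to 69.8 CPM in melanoblasts, 44.1 to 67.9 in adult and 63.3 to 86.5 CPM in aged McSC, with 1 of 8 lower in adult McSC and none called with age by edgeR or DESeq2 (2 higher by limma). Macrophage markers summed to 27.6 to 40.6, 38.5 to 55.1 and 53.8 to 72.7 CPM, with 2 of 6 higher in adult McSC. Dermal papilla markers summed to 8.23 to 18.0, 33.1 to 39.3 and 22.7 to 23.5 CPM, with 2 of 7 higher. Mast cell markers summed to 17.7 to 28.9, 5.08 to 7.72 and 3.99 to 4.81 CPM, with 2 of 6 lower and Fcer1a at 0 in adult replicate 3 and aged replicate 2. Chondrocyte markers summed to 8.65 to 10.8, 46.7 to 66.6 and 47.1 to 54.9 CPM, with 1 of 6 higher. That gene was Sox9, the most abundant of the list (log2 fold change 3.33, adjusted p = 3.33e-08). With age the median log2 fold change of the chondrocyte markers was 1.31, with 5 of 6 positive, while Sox9 was at -0.41. None of the macrophage, dermal papilla, mast cell or chondrocyte markers was called with age by edgeR, while 2, 1, 1 and 2 had an unadjusted p under 0.05, DESeq2 called 0 of each, and limma 2, 1, 0 and 1.

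As a description, the protein-coding genes whose log2 CPM followed Col1a1, Col4a1, Col12a1 and Col17a1 most closely over the 9 libraries were listed among 8146 genes averaging at least 10 CPM. For Col1a1 they were Col1a2 (Pearson r = 0.98), S1pr3 (0.98), Col3a1 (0.97), Map4k3 (0.97) and Itgav (0.97). For Col4a1 they were Col4a2 (r = 0.97), Cdh5 (0.96), Uaca (0.96), Cd93 (0.96) and Arpc1b (0.95). For Col12a1 they were Samhd1 (r = 0.99), Adamtsl4 (0.98), Prex2 (0.98), Rab6b (0.98) and Gdnf (0.98). For Col17a1 they were Fxyd3, Tgm5, S100a6, Krt15 and Ltbp4 (r from 0.992 to 0.998). After the group means were subtracted, the r ran from 0.841 to 0.966 for the 5 genes of Col1a1, from 0.88 to 0.932 for those of Col4a1, from 0.811 to 0.968 for those of Col12a1 and from 0.818 to 0.976 for those of Col17a1. These libraries share depth differences and cell makeup, and the r carries no test. Col4a1 per kilobase was 1.13 ± 0.286 times Col4a2 in melanoblasts (SD, n = 3), 0.913 ± 0.0563 times in adult (SD, n = 4) and 1.29 ± 0.0115 times in aged McSC (SD, n = 2). The exons of the pair overlap by 22 bases, which is 0.295% of the exon length of Col4a1 and 0.332% of that of Col4a2. Larger overlaps with other genes, whose reads cannot be told apart without knowledge of strand in the counting, were 5.65% of exon length for Col4a3 and 6.07% for Col9a3, where the other gene lies on the opposite strand.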

How the data were processed

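The 9 libraries (3 melanoblast, 4 adult McSC, 2 aged McSC) were grouped and numbered by their titles. Per the labels' protocols, 20 ng of RNA (integrity number above 8.5) was amplified with Ovation V2, and 1000 ng of cDNA was made into TruSeq libraries with 10 PCR cycles and 126-base paired reads. Amplification can distort the proportions of transcripts and leaves no record of molecules. Trimmomatic 0.36, STAR 2.5.2, SAMtools 1.9, DESeq2 1.22.2 and build mm10 are named in the submitters' processing notes as used by the authors. How reads were counted per gene, with which annotation and strand setting, is not given in the sources used here.

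The authors deposited raw counts per Ensembl gene (49671 genes, 12594770 to 33710117 counts per library). GENCODE M21 matched 49326 identifiers, and the 345 unmatched ones, with 0.047% of the counts, were kept. In edgeR 4.0.16 (R 4.3.3) the 31961 genes that pass filterByExpr were fitted in one group-means model of all 9 libraries, with TMM factors (0.560 to 1.52) and no covariates. The robust quasi-likelihood F test was used, and p-values were adjusted by Benjamini-Hochberg for each of the 2 comparisons, with 0.05 as the threshold. SE came from the F statistic, and 95% intervals from the fit's own t distribution. Levels are compared between genes per kb of exon union. Libraries of one group differed by more than counting error (chi-square divided by its degrees of freedom, 15.4 to 67.6 over pairs), so each counted as 1 sample. As alternatives, DESeq2 1.42.0, limma 3.58.1 with voom and sample quality weights, RLE factors, factors from genes above 5 on the average log2 CPM scale, no filter, a stricter filter (5 CPM in at least 2 libraries), a fit of the 2 groups alone, a replicate block and fits without each library were run.

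The members, gene lists, marker lists and tests were chosen with earlier results of these data known. Collagens called in either comparison and averaging at least 10 CPM in the higher group are given by library, others averaging at least 10 CPM in a group by group mean, and the rest by counts and ranges, except for the 2 most abundant of a class with none at 10 CPM. In other lists up to 4 called members with the smallest p are named, or the 2 most abundant where none was called. Genes named beyond this rule were chosen after their values were seen.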

Additional observations from a re-analysis of the deposited data

Results flagged for a closer look

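In the group of 4 adult libraries, 86 levels were checked for a library that stands apart, by the gap to its nearest neighbour as a share of the whole range (Dixon's ratio, against its 95% critical value). Chance alone marks about 5% of such groups, and 5 of 86 were marked. Col4a3 was at 9.08 CPM in adult replicate 1, above the 6.5 to 6.74 CPM of the others. P4hb was at 181 CPM in adult replicate 2, where the others had 105 to 118 CPM. Loxl3 at 7.33 CPM (others 8.79 to 9.07 CPM), Timp3 at 275 CPM (others 339 to 346 CPM) and the sum of mast cell markers at 5.08 CPM (others 7.44 to 7.72 CPM) were lowest in adult replicate 4.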

How the results depend on the processing

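Depth and library number limit these values: the aged group had 2 libraries of lower depth. Per kilobase, 8 collagen genes in melanoblasts, 13 in adult and 11 in aged McSC averaged at or below the 95th percentile of the receptor genes. Other collagen genes under 10 CPM lay above it, such as Col4a5 at 1.32 CPM per kb in adult McSC, beside 0.655. With factors from abundant genes, 26 collagen genes were higher and 0 lower in adult McSC (16 and 7 with TMM over all genes), 9 processing genes were higher and 6 lower (3 and 11), and 0 collagen genes were lower in aged McSC (5). Of all 31961 genes, that fit called 10416 higher and 1985 lower in adult McSC, and 32 higher and 25 lower in aged McSC. In adult McSC against melanoblasts, the log2 fold changes of Col5a2, Mmp16, Mmp2 and Timp2, called lower in the main fit, became positive (0.14, 0.023, 0.026 and 0.19). Negative values of collagen genes not called in the main fit also became positive, for Col1a2 (0.20), Col6a1 (0.14), Col11a1 (0.20) and Col26a1 (0.62). The cause was not tested. Collagen genes called lower in adult McSC numbered 11 with limma and 2 with the stricter filter, under which 6 processing genes were higher. Among all genes, 7263 of 31961 were lower with limma, and 3346 of 13639 were lower and 3531 higher with the stricter filter. Collagen genes called lower in aged McSC numbered 9 with DESeq2, 10 with limma, 8 without a filter, 2 with the stricter filter and 9 with only the 2 groups. In the same order, all genes called lower numbered 290 and 670 of 31961, 241 of 45758, 44 of 13639 and 182 of 31262. In aged McSC 1 collagen gene was higher with limma and with only the 2 groups, and limma called 1 processing gene higher and 2 lower. All genes called higher numbered 850 of 31961 with limma and 129 of 31262 with only the 2 groups. Leaving out each library in turn gave 12 to 20 collagen genes higher and 3 to 10 lower in adult McSC (3 without melanoblast replicate 2), 1 to 5 processing genes higher and 11 to 12 lower (5 without melanoblast replicate 3, 1 without adult replicate 3), and 0 to 1 collagen genes higher and 0 to 9 lower in aged McSC.

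Replicate numbers were not treated as pairs in the main fit. Deviations from the group means correlated at -0.08, 0.20 and -0.04 between same-numbered adult and melanoblast libraries. The highest r with another number was 0.28, 0.014 and 0.054. Between aged and adult libraries the r was 0.05 and 0.06, beside 0.013 and -0.0051 with another number. Deviations of 2 aged libraries mirror each other, so these values are not separate, and the check cannot exclude pairing. With a replicate block 14 collagen genes were higher and 6 lower in adult McSC, and 1 was higher (Col2a1, log2 fold change 1.94) and 7 lower in aged McSC. Of all 31961 genes, the block fit called 3965 higher and 5070 lower in adult McSC, and 40 higher and 132 lower in aged McSC.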
